A study of Mus musculus with 6 samples.

Results

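The 6 actin isoforms of the mouse are the products of *Acta1*, *Acta2*, *Actb*, *Actc1*, *Actg1* and *Actg2*, and they were taken by gene name from a count table of 41721 rows. Of the 6 names, 5 had a row and 1, *Actg1*, had none. RNA was sequenced from mouse aortic smooth muscle cells (MASMCs) cultured from the abdominal aorta, with 3 libraries from Pdk4fl/fl cells and 3 from Pdk4SMKO cells. Both genotypes carried loxP sites around part of *Pdk4*, which encodes pyruvate dehydrogenase kinase 4, a kinase that holds back the entry of pyruvate into the mitochondrial citric acid cycle. Pdk4SMKO mice also carried *Myh11*-creERT2, a tamoxifen-inducible Cre on the Y chromosome driven by a smooth muscle myosin promoter, so that the control cells lacked the Cre. Mice were on a C57BL/6J background, tamoxifen was given to both genotypes, and the cells were isolated with collagenase at 10 weeks of age and used between passages 4 and 8. All 6 libraries came from cells treated with angiotensin II (Ang II), which the study's methods give as 1 μM for 48 h, and no untreated library entered the comparison. The labels do not say whether the 3 libraries of a genotype came from separate mice, so that the p-values measure the spread between these libraries.

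Actin monomers polymerise into filaments that carry the contraction of muscle and the shape, adhesion and movement of other cells. Vertebrates make a pair of cytoplasmic actins, β-actin from *Actb* and γ-actin from *Actg1*, which nearly every cell expresses. The remaining isoforms are muscle actins: *Acta2* encodes the vascular smooth muscle α-actin, *Actg2* the γ-actin of visceral smooth muscle, *Acta1* the skeletal α-actin and *Actc1* the cardiac α-actin. In smooth muscle, *Acta2* transcription depends on serum response factor (SRF), which binds CArG boxes in actin promoters, and on its cofactors of the myocardin family. *Actb* is also widely used as an internal reference in RT-qPCR, and it served as such in the RT-qPCR of this study.

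The proteins are almost alike, and the isoforms differ most at the amino terminus, so the start of each coding sequence is shown because it is where the genes are most easily told apart. The 6 sequences below come from the GENCODE vM21 transcripts (GRCm38), 5′ to 3′ from the start codon, and are aligned to *Acta2* by their distance from the stop codon. Capitals mark the bases that differ from *Acta2* at the same distance, so that the start codons of the shorter *Actg2*, *Actb* and *Actg1* stand opposite later bases of *Acta2*.
Acta2: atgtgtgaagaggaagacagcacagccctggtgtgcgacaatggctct
Acta1: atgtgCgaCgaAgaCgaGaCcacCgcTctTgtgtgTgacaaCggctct
Actc1: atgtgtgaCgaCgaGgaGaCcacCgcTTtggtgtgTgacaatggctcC
Actg2: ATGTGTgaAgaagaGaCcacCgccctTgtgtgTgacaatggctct
Actb: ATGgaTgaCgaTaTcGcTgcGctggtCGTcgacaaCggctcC
Actg1: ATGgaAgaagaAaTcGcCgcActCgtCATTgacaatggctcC
Over the whole coding sequence *Actb* and *Actg1* were the closest of the 15 pairs, with 88.7% of 1128 bases identical and 128 different. *Acta2* shared 85.4% of its coding bases with *Acta1*, 83.0% with *Actb* and 83.8% with *Actg2*.

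This bears on how far reads can be assigned to 1 isoform. The share of stretches of 150 bases, the read length, that also occurred in a transcript of another gene was 0% for *Acta2*, *Actb*, *Actg2*, *Acta1* and *Actc1* (0 of 1771 stretches for *Actb*). For *Actg1* it was 43.5%, all in transcripts of processed copies of the gene. At 75 bases the share was 2.60% for *Actb*, 0.437% for *Acta1* and 54.5% for *Actg1*, and it was 0% for *Acta2*, *Actg2* and *Actc1*.

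In the coordinates of the table, which are those of the C57BL/6NJ strain assembly, all 5 rows were protein-coding genes on the minus strand. *Actb* lay at chr5:153599831-153604861, *Acta2* at chr19:33921975-33936222, *Actg2* at chr6:86845432-86870785, *Acta1* at chr8:131818454-131821422 and *Actc1* at chr2:120378528-120384792. The only row that overlapped one of them was a gene with 0 counts in all libraries, which lay across *Actc1*.

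Depth was similar across the libraries, with 16526044 to 22481670 counts in all. *Pdk4* itself had 570, 639 and 421 counts in the Pdk4fl/fl libraries and 110, 182 and 141 in the Pdk4SMKO libraries, a log2 fold change of -2.34 (adjusted p = 4.49e-06, edgeR), and its counts include exons outside the loxP sites. The libraries of a genotype correlated at 0.977 or above over 9230 well-counted genes, and libraries of different genotypes at 0.629 to 0.684. The genotypes therefore differed at most genes: edgeR's quasi-likelihood test with trimmed-mean (TMM) scaling called 8349 of 14085 genes tested at an adjusted p below 0.05 and a fold change of at least 2.

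The 5 actin rows, which leave out *Actg1*, took a far larger part of all counts in Pdk4SMKO cells. The 5 rows together took 0.0431%, 0.0334% and 0.0402% of all counts in the Pdk4fl/fl libraries and 0.389%, 0.388% and 0.356% in the Pdk4SMKO libraries. With each library scaled by its TMM factor to 1000000 counts (CPM), the sum was 481 ± 59.0 CPM in Pdk4fl/fl and 3066 ± 164 CPM in Pdk4SMKO cells (mean ± SD, n = 3 libraries per genotype), which is 6.38-fold higher. The ranges did not overlap, and the exact two-sided permutation test gave p = 0.1, the smallest value that 3 against 3 libraries allow. In bulk RNA, a change in the RNA of each cell and a change in the mix of cells in the culture cannot be told apart.

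Counts were high enough for a test in 3 of the 5 rows, and each of these isoforms was called higher in Pdk4SMKO cells. Over all genes tested, 32.8% were called higher, 26.5% lower and 59.3% in either direction, so that a call by itself was common in this comparison. The cytoplasmic and the smooth muscle isoforms are described first, and the striated muscle isoforms after them.

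β-Actin showed the largest change in counts. *Actb* had 4068, 4064 and 3249 counts in the Pdk4fl/fl libraries and 53235, 50036 and 46127 in the Pdk4SMKO libraries. On the CPM scale these were 271, 223 and 246 against 2337, 2490 and 2263. Every Pdk4SMKO library lay above every Pdk4fl/fl library by a wide margin, and the libraries of each genotype lay close together, with coefficients of variation of 9.74% and 4.90%. The means were 247 ± 24.0 and 2363 ± 116 CPM, and the log2 fold change was 3.26 ± 0.14 (SE; adjusted p = 2.75e-08, edgeR). Among the 14085 genes tested, 1348 had a larger log2 fold change. Ranked by counts per kilobase within a library, *Actb* stood at places 686, 873 and 864 in the Pdk4fl/fl libraries and at places 11, 13 and 18 in the Pdk4SMKO libraries.

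α-Smooth muscle actin also rose, and by less. *Acta2* had 3651, 3430 and 3541 counts in the Pdk4fl/fl libraries and 17485, 14353 and 12650 in the Pdk4SMKO libraries. The CPM values were 243, 188 and 268 against 768, 714 and 621, with no overlap between genotypes. The means were 233 ± 40.8 and 701 ± 74.5 CPM, a log2 fold change of 1.59 ± 0.16 (SE; adjusted p = 6.58e-06, edgeR). Of the genes tested, 3365 had a larger log2 fold change. Its rank by counts per kilobase moved from places 521, 730 and 572 to places 55, 63 and 81.

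Visceral smooth muscle γ-actin was rare in both genotypes. *Actg2* had 0, 6 and 2 counts in the Pdk4fl/fl libraries and 40, 33 and 46 in the Pdk4SMKO libraries. The lowest Pdk4SMKO library stood well above the highest Pdk4fl/fl library, but 2 of the 3 Pdk4fl/fl libraries were at or below 3 counts, the limit treated as undetected. The mean level was 0.160 ± 0.165 CPM against 1.89 ± 0.327 CPM. The log2 fold change of 3.42 ± 0.62 (SE; adjusted p = 0.000529, edgeR) therefore rested on 8 control counts in all, and it was 2.87 without Pdk4fl/fl replicate 1 and 4.61 without Pdk4fl/fl replicate 2.

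**Figure D1:**
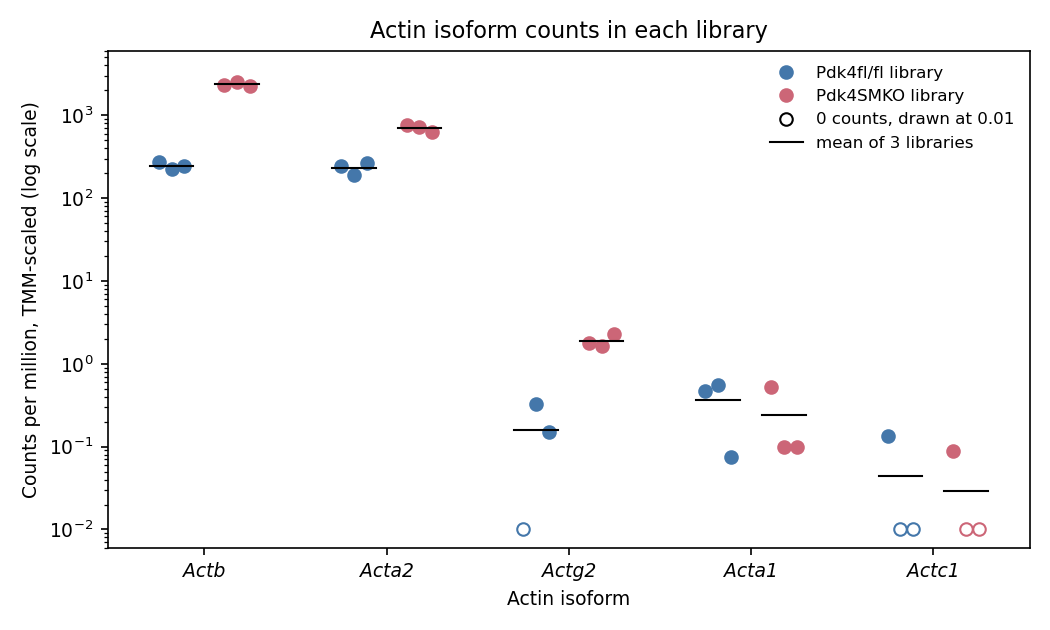
TMM-scaled counts (CPM) of the 5 isoforms on a log axis, 1 point per library, with a black bar at the mean of 3 libraries and open points for libraries with 0 counts. *Actb*, *Acta2* and *Actg2* lie higher in all 3 Pdk4SMKO libraries, while *Acta1* and *Actc1* lie below 1 CPM in all 6 libraries with overlapping genotypes.

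The striated muscle isoforms were at the edge of detection. *Acta1* had 7, 10 and 1 counts in the Pdk4fl/fl libraries and 12, 2 and 2 in the Pdk4SMKO libraries, 18 and 16 counts in all. The genotypes overlapped, and the row did not reach the filter for testing. Fitted without the filter, its log2 fold change was -0.54 ± 0.83 (SE; adjusted p = 0.577, edgeR), so that a change was not detectable at this depth. *Actc1* had 2 counts in 1 library of each genotype and 0 in the others, which gives no fold.

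Cytoplasmic γ-actin could not be followed in the same way, since no row was named *Actg1*. Between its neighbours *Bahcc1* and *Fscn2* on chromosome 11, the table held a pair of short rows annotated as microRNAs on the minus strand, *Gm23419* with 84 bases and *Mir6935* with 64 bases. In GENCODE vM21 (GRCm38), *Gm23419* lay at chr11:120346736-120346819, and 83 of its 84 bases fell in a coding exon of *Actg1*, while all 64 bases of *Mir6935* fell in an *Actg1* intron. *Gm23419*, which the table describes as a cytoplasmic actin, had 2604, 2838 and 2195 counts in the Pdk4fl/fl libraries and 5153, 3686 and 3728 in the Pdk4SMKO libraries. Its level was 165 ± 8.91 CPM against 198 ± 24.9 CPM, a log2 fold change of 0.26 ± 0.12 (SE; adjusted p = 0.0799, edgeR), and it was not called. *Mir6935* had 0, 1 and 0 counts against 25, 17 and 26, a log2 fold change of 5.26 ± 0.76 (SE; adjusted p = 9.96e-05, edgeR). Neither row measures the *Actg1* transcript, since reads over most of its length have no row to fall in, and the level of γ-actin was therefore not measured here.

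Beside the 5 members, 42 rows were named or described as actin genes or actin pseudogenes, of which 37 had 0 counts in all libraries and 2, *Gm23419* among them, had at least 10 counts in some library. The other one was an unnamed processed pseudogene on chromosome 11 described as β-actin (MGP_C57BL6NJ_G0010826), with 128, 155 and 167 counts against 243, 180 and 215. Its log2 fold change of 0.03 ± 0.21 (SE; adjusted p = 0.904, edgeR) was unlike that of *Actb*. Of the sum over all actin rows, those beside the members took 26.1%, 28.6% and 25.8% in the Pdk4fl/fl libraries and 7.08%, 5.66% and 6.29% in the Pdk4SMKO libraries, most of it *Gm23419*.

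The balance between the isoforms shifted from *Acta2* to *Actb*. Of the summed counts of the 5 rows, *Actb* took 52.6%, 54.1% and 47.8% in the Pdk4fl/fl libraries and 75.2%, 77.7% and 78.4% in the Pdk4SMKO libraries. *Acta2* took 47.2%, 45.7% and 52.1% against 24.7%, 22.3% and 21.5%. Neither share overlapped between genotypes. The mean share of *Actb* was 51.5 ± 3.29% against 77.1 ± 1.67%, a difference of 25.6 percentage points, and that of *Acta2* was 48.3 ± 3.37% against 22.8 ± 1.67%, a difference of -25.5 points (exact two-sided permutation test, p = 0.1 for each, 0.25 after Benjamini-Hochberg adjustment over the 5 shares). With all actin rows in the sum, the differences were 34.5 points for *Actb* and -14.0 points for *Acta2*. *Actg1* was absent from the sum, and the shares are shares of the isoforms counted.

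The other isoforms together made up less than 0.3% of the sum in each library. The share of *Actg2* was 0.0364 ± 0.0404% in Pdk4fl/fl and 0.0620 ± 0.0143% in Pdk4SMKO cells, with overlapping libraries and a permutation p of 0.5 by the exact test. In Pdk4fl/fl replicate 1 it was 0 of 7728 actin counts, with an exact 95% upper limit of 0.0477% from counting error. The share of *Acta1* was 0.0795 ± 0.0600% against 0.00782 ± 0.00791% and overlapped between genotypes (exact permutation p = 0.2). The difference in the share of *Actg2* was 0.0255 percentage points, and it was 0.00731 without Pdk4fl/fl replicate 1 and 0.0473 without Pdk4fl/fl replicate 2.

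Reads are shared out by transcript length, so levels of different genes are compared per kilobase. The gene lengths given with the counts were used, 2538 bases for *Actb* and 1781 for *Acta2*. On the scale of CPM per kilobase, *Acta2* had 137, 106 and 150 and *Actb* 107, 87.9 and 96.9 in the Pdk4fl/fl libraries. *Acta2* was the higher one within each of these libraries, with ratios of *Acta2* to *Actb* of 1.28, 1.20 and 1.55, although the ranges of the 2 genes touched across libraries. In the Pdk4SMKO libraries *Acta2* had 431, 401 and 348 and *Actb* 921, 981 and 892, with ratios of 0.468, 0.409 and 0.391. Among the 5 isoforms with a row, the order of the levels by these lengths was therefore *Acta2*, *Actb* and then the rare isoforms in Pdk4fl/fl cells. In Pdk4SMKO cells it was *Actb*, *Acta2*, *Actg2*, *Acta1* and *Actc1*. The order of *Acta2* and *Actb* in Pdk4fl/fl cells depends on the lengths used. The GENCODE transcripts have 1920 bases for *Actb* and 2035 for *Acta2*. By counts alone, the ratios of *Acta2* to *Actb* in the Pdk4fl/fl libraries were 0.897, 0.844 and 1.09. The place of *Actg1*, which was not measured, is not known. Among the rare isoforms, *Actg2*, *Acta1* and *Actc1* overlapped in Pdk4fl/fl cells, while *Actg2*, at 1.05 to 1.45 CPM per kilobase, stood above *Acta1* in all Pdk4SMKO libraries. Per kilobase, the share of *Actb* in the sum was 42.7 ± 3.19% against 70.3 ± 1.97%.

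**Figure D2:**
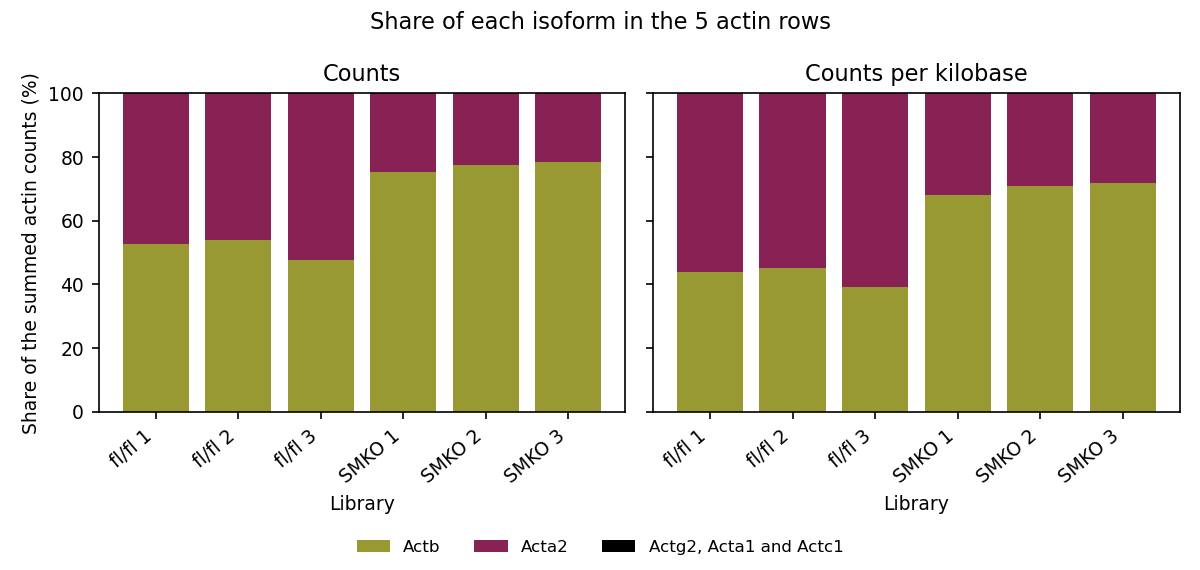
Stacked bars of the share of each isoform in the summed counts of the 5 actin rows in each of the 6 libraries, from counts on the left and counts per kilobase on the right, in percent. *Actb* takes 47.8% to 54.1% of the counts in Pdk4fl/fl and 75.2% to 78.4% in Pdk4SMKO libraries, and the 3 rare isoforms are too few to be seen.

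Ratios within a library do not depend on how libraries are scaled. The log2 ratio of *Acta2* to *Actb* counts was -0.16, -0.24 and 0.12 in the Pdk4fl/fl libraries and -1.61, -1.80 and -1.87 in the Pdk4SMKO libraries. The difference between genotypes was -1.67 ± 0.14 (SE), with no overlap. Ratios were computed for 10 pairs of isoforms, and the exact permutation p of this pair was 0.1, or 0.167 after Benjamini-Hochberg adjustment over the 10. The log2 ratio of *Actg2* to *Acta2* was also without overlap, at -12.83, -9.04 and -10.47 against -8.75, -8.74 and -8.09, a difference of 2.25 ± 1.13 (SE). The spread of this ratio came from the counts of 0 to 6 in the control libraries, and the difference was 1.23 without Pdk4fl/fl replicate 1. The ratio of *Actg2* to *Actb* overlapped between genotypes, with a difference of 0.59 ± 1.11 (SE), and its direction turned with the small number added to each count. The 7 pairs with *Acta1* or *Actc1* rest on rows with at most 12 counts in a library and are not described further.

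**Figure D3:**
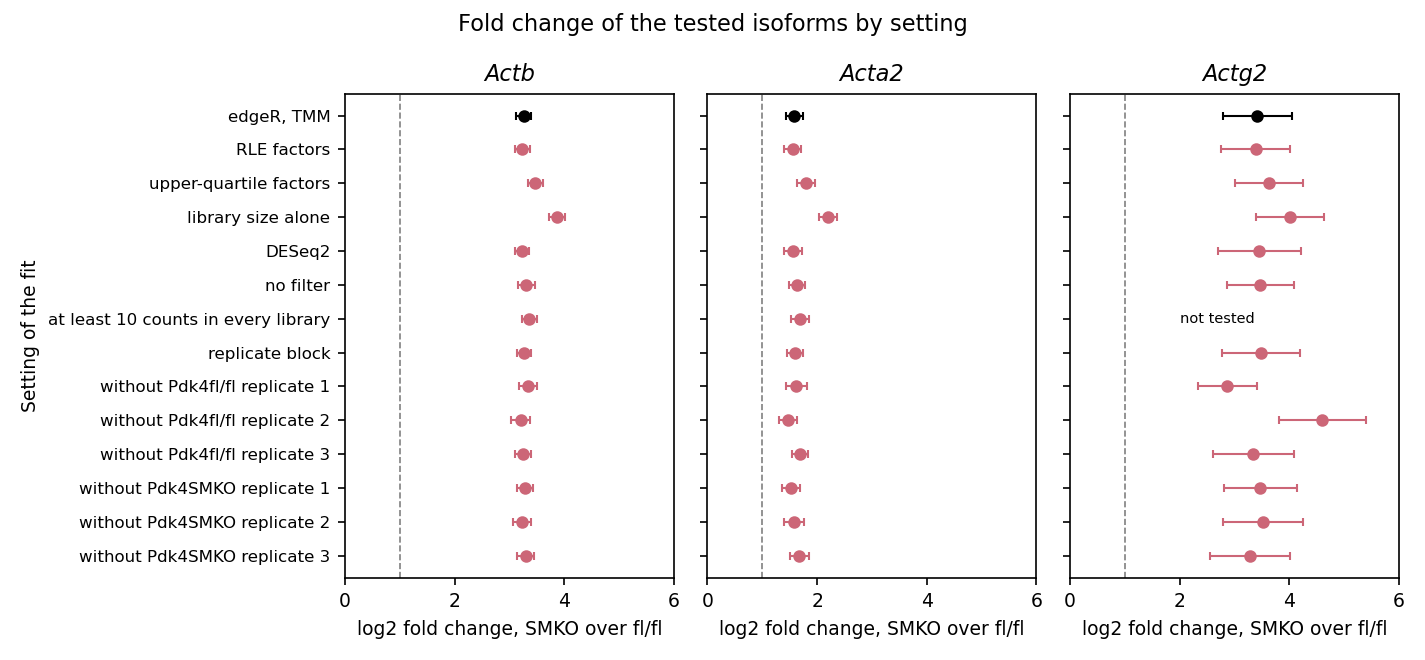
Log2 fold change (Pdk4SMKO over Pdk4fl/fl) of the 3 tested isoforms under each scaling, filter, tool and set of libraries, with horizontal bars of 1 SE and a dashed line at a 2-fold change. All points lie above the dashed line. *Actb* ranges from 3.20 to 3.86, *Acta2* from 1.47 to 2.20 and *Actg2* from 2.87 to 4.61, and *Actg2* was not tested where 10 counts were required in every library.

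The promoters of 4 isoforms are shown because SRF and several of its cofactors were called in this comparison too, as described below. *Actb* and *Actg2*, both called higher, had no promoter entry in the reference used and are not shown. Each run is the 120 bases that end just before the transcription start in RefSeq (GRCm38.p6, minus strand), and capitals mark CArG boxes in which at most 1 of the 6 middle bases is G or C. All 4 windows hold at least 1 such box close to the start.
Acta2, chr19:34255374-34255493: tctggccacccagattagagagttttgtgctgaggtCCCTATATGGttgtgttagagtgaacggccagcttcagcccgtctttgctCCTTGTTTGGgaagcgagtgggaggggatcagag
Acta1, chr8:123894776-123894895: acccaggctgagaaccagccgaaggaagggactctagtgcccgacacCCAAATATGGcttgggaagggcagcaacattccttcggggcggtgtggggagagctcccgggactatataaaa
Actc1, chr2:114052876-114052995: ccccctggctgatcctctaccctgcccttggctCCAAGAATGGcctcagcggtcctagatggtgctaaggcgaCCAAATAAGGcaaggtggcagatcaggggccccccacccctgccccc
Actg1, chr11:120348496-120348615: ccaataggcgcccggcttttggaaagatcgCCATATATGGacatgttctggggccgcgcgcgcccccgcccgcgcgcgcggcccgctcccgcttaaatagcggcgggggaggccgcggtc
In the 250 bases before the start, *Acta1*, *Actc1* and *Actg1* each held 1 box with only A and T in the middle, which 1.47% of 32851 mouse promoters held. *Acta2* held 2 boxes with 1 G or C in the middle and none without. Of boxes with 1 G or C, *Acta1* held 2, *Actc1* 3 and *Actg1* 0. When 1 G or C was allowed, 8.59% of promoters held a box. The pattern of a box is symmetric, so that a box on 1 strand is also a box on the other, though its letters can differ. A match describes letters and says nothing of binding, and boxes stood before *Acta2*, which was abundant here, and before *Acta1* and *Actc1*, which were nearly undetected. What part SRF had in the actin levels was not tested.

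The proteins that bind, build and shape actin filaments moved in both directions. The lists of partners held 156 different genes, of which 150 had a row and 114 were tested. Of these 114, 31 were called lower and 29 higher in Pdk4SMKO cells, 52.6% in all against 59.3% of all genes tested, and the median log2 fold change was -0.23 against 0.12 over all genes. With library size alone as the scaling, which moved the median of all genes from 0.12 to 0.72, the split was 13 lower and 39 higher. The plot of the lists shows partners on both sides of the median of all genes, while the 3 tested actins lay above it.

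**Figure D4:**
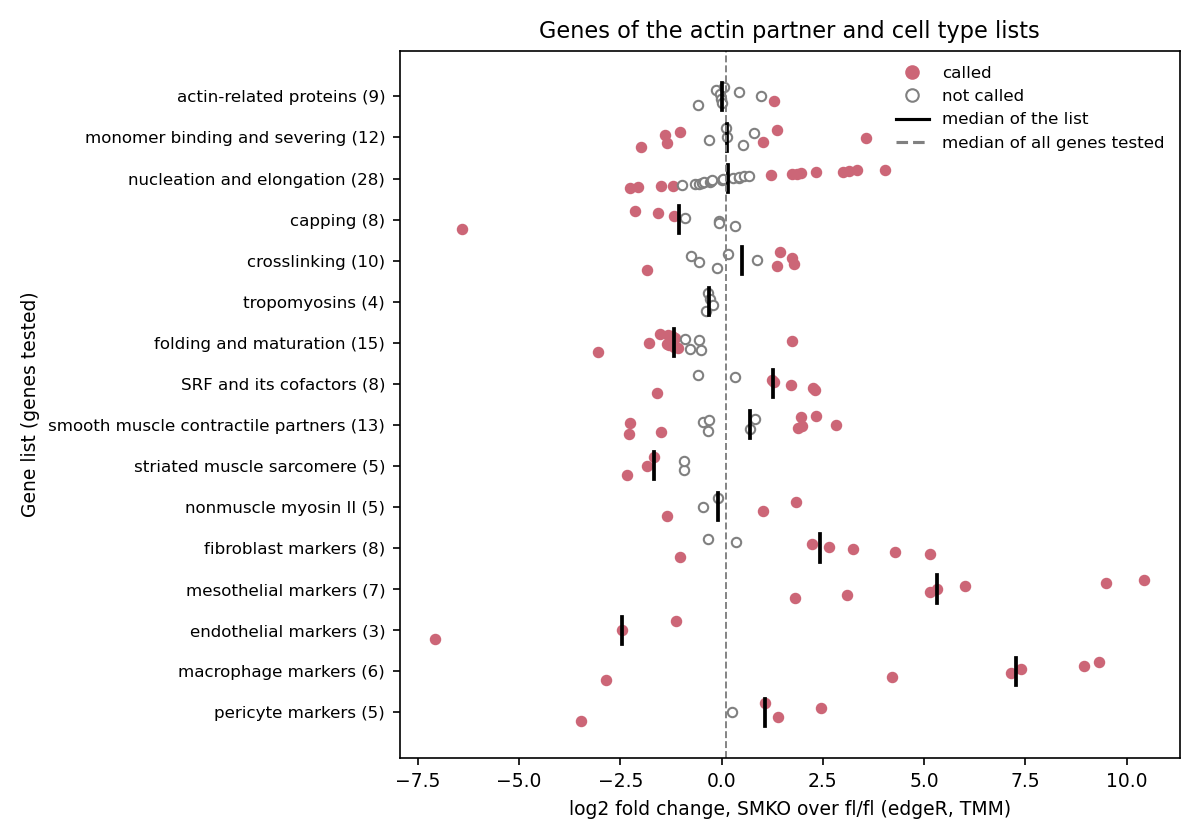
Log2 fold change (Pdk4SMKO over Pdk4fl/fl) of the tested genes of each list, 1 point per gene, filled where the gene was called, with a black bar at the list's median and a dashed line at the median of all genes tested, 0.12. Chaperone and capping genes lie mostly to the left of the dashed line (10 and 4 called lower, 2 and 2 with library size alone), SRF and its cofactors mostly to the right, and the actin-related proteins around it. Over all genes tested with TMM scaling, 26.5% were called lower.

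SRF, the transcription factor of actin genes, and its cofactors were mostly higher. Of 8 genes tested, 5 were called higher and 1 lower, where 32.8% of all genes tested were called higher and 26.5% lower. The median log2 fold change was 1.27 against 0.12 over all genes tested. *Srf* had 486, 499 and 286 counts against 1898, 2066 and 1616, a log2 fold change of 1.70 ± 0.17 (SE; adjusted p = 7.58e-06, edgeR). The actin-sensing cofactors *Mrtfa* and *Mrtfb*, which the table lists by their older symbols, rose by 1.24 and 2.30 on the log2 scale. Among the ternary complex factors, *Elk4* rose by 2.27 and *Elk3* by 1.30, whereas *Elk1* fell by 1.59. *Myocd*, the smooth muscle cofactor of SRF, had a log2 fold change of -0.58 and *Fhl2* one of 0.32, and neither was called. With library size alone *Elk1* was no longer called, and without Pdk4fl/fl replicate 3 *Mrtfa* was not.

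Actin folding needs the chaperonin CCT and its helper prefoldin, and these were mostly lower. Of 15 genes tested, 10 were called lower and 1 higher, with a median of -1.18. The prefoldin subunit *Pfdn4* fell most, by 3.05 on the log2 scale, from 1558, 1934 and 1996 counts to 359, 270 and 293. *Cct2*, which had the highest mean CPM of the list, fell by 1.18, a call lost with upper-quartile factors and with library size alone. *Pdcl3*, a phosducin-like helper of CCT, was the only gene called higher, at 1.74. With library size alone, 2 genes of the list were called lower in place of 10, *Pfdn4* being 1 of the 2.

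Proteins that bind monomers or sever filaments were divided. Of 12 tested, 4 were called lower and 3 higher, where 26.5% of all genes tested were called lower and 32.8% higher. With library size alone, 1 was called lower and 5 higher. *Cfl1*, the cofilin that severs filaments and the gene of the list with the highest mean CPM over the 6 libraries, had 37641, 45476 and 37533 counts in the Pdk4fl/fl and 15819, 12956 and 13264 in the Pdk4SMKO libraries, a log2 fold change of -1.98 ± 0.13 (SE). In the Pdk4SMKO libraries it stood at 663 CPM, below the 852 CPM of *Tmsb4x*, thymosin β4, which binds monomers. *Twf1*, twinfilin, a monomer-binding protein, moved the other way, from 216, 267 and 240 to 3515, 3694 and 4406 counts, at 3.56 ± 0.17 (SE). In Pdk4fl/fl cells the summed level of this list was 5854 to 7212 CPM against 3648 to 3929 CPM in Pdk4SMKO cells. This was opposite in direction to the sum of the 5 actin rows.

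Nucleation and elongation factors start filaments and lengthen them. Of 28 genes tested, 4 were called lower and 9 higher, where 26.5% of all genes tested were called lower and 32.8% higher. With library size alone, 2 were called lower and 13 higher. *Wasl*, an activator of the Arp2/3 complex, fell by 2.26 on the log2 scale, and *Fmnl1*, a formin, rose by 4.03. *Arpc1b*, an Arp2/3 subunit, had the highest mean CPM of the list over the 6 libraries, although the formin *Inf2* stood above it in Pdk4SMKO cells, at 400.5 against 379 CPM. The log2 fold change of *Arpc1b* was -0.98 and missed the fold limit. Of 8 capping genes tested, 4 were called lower and 0 higher, with a median of -1.04. *Tmod1*, tropomodulin, which caps the pointed end, had 539, 816 and 454 counts in the Pdk4fl/fl libraries and 9, 9 and 10 in the Pdk4SMKO libraries, at -6.42 ± 0.22 (SE). *Capzb*, a subunit of the barbed-end capping protein, had the highest mean CPM of the list and fell by 1.58, a call lost with library size alone.

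Crosslinkers and nonmuscle myosin II bundle and pull on filaments. Of 10 crosslinking genes tested, 1 was called lower and 4 higher, where 26.5% of all genes tested were called lower and 32.8% higher. *Flna*, filamin A, which had the highest mean CPM of that list over the 6 libraries, had 12624, 12974 and 7266 counts against 54634, 48449 and 44529, a log2 fold change of 1.73. *Pls1*, a plastin, had 5, 12 and 2 counts against 33, 33 and 22, a log2 fold change of 1.79, and the leukocyte plastin *Lcp1* fell by 1.85. *Myh9* and *Myh10*, heavy chains of nonmuscle myosin II, rose by 1.83 and 1.01, and the light chain *Myl12a* fell by 1.34. The call of *Myh10* was lost with RLE factors, with DESeq2 and without Pdk4fl/fl replicate 3, and that of *Myl12a* with library size alone. *Myl6* and *Myl12b* had log2 fold changes of -0.08 and -0.46 and were not called, and *Myh14* had at most 11 counts in a library.

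The tropomyosins, which lie along the filament, were not called, where 59.3% of all genes tested were called in either direction. *Tpm1*, with the highest mean CPM, had a log2 fold change of -0.38, *Tpm2* one of -0.33, *Tpm3* one of -0.28 and *Tpm4* one of -0.22. Of 9 actin-related proteins tested, 1 was called, *Actr3b* at 1.29 from 4 to 9 counts per Pdk4fl/fl library, and the median was 0.00125. *Actr3b* was not called with DESeq2, without Pdk4fl/fl replicate 1 or without Pdk4SMKO replicate 3. *Actr2*, with the highest mean CPM and a core subunit of the Arp2/3 complex, had a log2 fold change of 0.44.

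The contractile genes that accompany *Acta2* in differentiated smooth muscle did not move as 1 group. Of 13 tested, 3 were called lower and 5 higher, where 26.5% of all genes tested were called lower and 32.8% higher. *Smtn*, smoothelin, *Tagln*, transgelin, and *Cnn1*, calponin, moved opposite to *Acta2*, with log2 fold changes of -2.28, -2.26 and -1.495. *Tagln* had 3398, 4268 and 3923 counts in the Pdk4fl/fl libraries and 1979, 746 and 693 in the Pdk4SMKO libraries. *Myh11*, *Mylk*, *Lmod1*, *Synpo2* and *Des* were called higher, all from low counts. *Myh11*, the smooth muscle myosin heavy chain that defines the lineage and drives the Cre, had 8, 10 and 10 counts against 62, 44 and 46. *Des*, desmin, rose most, by 2.84, from 5, 1 and 0 counts to 21, 22 and 18. With library size alone *Cnn1* was no longer called. *Cald1*, caldesmon, which had the highest mean CPM of the list, had a log2 fold change of 0.82 and was not called. *Acta2* and *Tagln* were thus well counted in all 6 libraries and moved in opposite directions. In a Pdk4fl/fl library *Myh11* had at most 10 counts, *Des* 5, *Lmod1* 39, *Synpo2* 40 and *Mylk* 44.

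Sarcomere genes of striated muscle were mostly too low in counts to be tested, as *Acta1* and *Actc1* were. Of 24 genes, 5 were tested and 3 were called lower, where 26.5% of all genes tested were called lower. The summed level of the list was 21.5 to 23.0 CPM in Pdk4fl/fl and 5.97 to 7.99 CPM in Pdk4SMKO libraries. *Acta1* had 18 counts in all in Pdk4fl/fl and 16 in Pdk4SMKO libraries, and *Actc1* had 2 and 2. The muscle regulators *Myod1* and *Myog* had 0 counts in all libraries. The 3 were *Neb*, nebulin, *Tnnt2*, cardiac troponin T, and *Tnnc1*, troponin C, with log2 fold changes of -2.33, -1.84 and -1.66. *Neb* had the highest mean CPM over the 6 libraries, but in Pdk4SMKO cells it stood at 1.71 CPM against 1.76 CPM for *Tnnt2*.

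Markers of other cell types of the aorta also moved with genotype, and their part in the actin values was not tested. Of 7 mesothelial genes tested, all 7 were called higher, where 32.8% of all genes tested were called higher. The summed level of the list of 8 was 74.2 to 99.99 CPM in Pdk4fl/fl and 723 to 1325 CPM in Pdk4SMKO libraries. *Upk1b* rose most, by 10.43 on the log2 scale, and *Msln* by 6.00, from 104, 90 and 98 counts to 13885, 5877 and 6686. *Msln* had the highest mean CPM of the list over the 6 libraries, but in Pdk4fl/fl cells it stood at 6.43 CPM against 79.2 CPM for *Krt19*. *Krt18*, *Upk3b*, *Lrrn4*, *Wt1* and *Krt19* rose by 9.49, 5.31, 5.15, 3.10 and 1.82, while *Krt8* had at most 15 counts in a library.

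Fibroblast genes were called higher for 5 and lower for 1 of 8, where 32.8% of all genes tested were called higher and 26.5% lower. The sum of the fibroblast list was 634 to 867 CPM in Pdk4fl/fl and 5432 to 7448 CPM in Pdk4SMKO libraries. *Col3a1* rose by 5.14, *Lum* by 4.29, *Col1a1*, with the highest mean CPM, by 3.25, *Cd34* by 2.64 and *Dcn* by 2.23. *Dpt* fell by 1.02, and *Pdgfra* and *Pi16* had log2 fold changes of 0.34 and -0.34. *Dpt* was not called with upper-quartile factors, with library size alone, with no filter, with the 10-count filter, without Pdk4fl/fl replicate 3 or without Pdk4SMKO replicate 1. Collagens and *Dcn* are also made by smooth muscle cells in culture.

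The macrophage list held 4 genes at 0 in all Pdk4fl/fl libraries, *Adgre1*, *C1qa*, *C1qb* and *Tyrobp*, of 7 with a row. These were present in the Pdk4SMKO libraries, *C1qb* with 170, 69 and 42 and *C1qa* with 125, 58 and 35 counts, *Adgre1* with 41, 19 and 13 and *Tyrobp* with 39, 12 and 11. *Csf1r* rose by 4.21, *Cd68*, a lysosomal protein, fell by 2.85, and *Ptprc* had at most 33 counts. The sum of the list was 21.4 to 38.0 CPM in Pdk4fl/fl and 9.71 to 30.5 CPM in Pdk4SMKO libraries, most of it *Cd68* in the former.

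All 3 endothelial genes tested were called lower, where 26.5% of all genes tested were called lower and 32.8% higher. *Erg*, *Kdr* and *Vwf* had log2 fold changes of -7.07, -2.47 and -1.13, *Pecam1* and *Tek* had at most 25 counts in a library, and *Cdh5* had at most 1. The call of *Vwf* was lost with upper-quartile factors, with library size alone, without Pdk4fl/fl replicate 1 and without Pdk4SMKO replicate 2. The sum was 17.4 to 26.3 CPM against 2.84 to 5.62 CPM. Of 5 pericyte genes tested, 3 were called higher, *Notch3* at 2.45, *Rgs5* at 1.40 and *Pdgfrb* at 1.06, and *Abcc9* fell by 3.48. *Rgs5* had 12, 18 and 14 counts against 105, 20 and 38, its CPM values overlapped between genotypes, and it was not called without any 1 of the Pdk4fl/fl libraries or without Pdk4SMKO replicate 1. *Pdgfrb* was not called without Pdk4fl/fl replicate 3 or Pdk4SMKO replicate 2, so that 1 gene was called higher without Pdk4fl/fl replicate 3. *Cspg4* had a log2 fold change of 0.25 and *Kcnj8* at most 9 counts. The sum was 181 to 266 CPM against 366 to 574 CPM.

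The genes whose pattern lay closest to each tested isoform were taken from 8930 genes with a mean of at least 10 CPM, by the Euclidean distance between centred log2 CPM values over the 6 libraries. For *Actb* these were *Recql5* at 0.168, *Elmod2* at 0.178 and *B4galnt1* at 0.181 log2 units. For *Acta2* they were *Snx15* at 0.187, *Rnf130* at 0.219 and *Nceh1* at 0.245. The nearest genes to *Actg2* were much farther away, *Hpse* at 1.02 and *Cnp* at 1.19. None of these genes was in a list of actin partners. The libraries fell into 2 genotypes, and the 3 genes nearest to *Actb* had log2 fold changes of 3.24, 3.35 and 3.23, close to its own.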

How the data were processed

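RNA from cultured MASMCs was sequenced as 150-base paired reads by the authors, and the aligner, the counting program and any use of strand are not given in the sources used here. The deposited table holds read counts per gene for 3 Pdk4fl/fl and 3 Pdk4SMKO libraries, all treated with Ang II. The submitters' processing notes name GRCm39, while gene identifiers and coordinates are of the C57BL/6NJ assembly. The labels and the study's methods name different library kits. Genes were filtered by filterByExpr and tested with edgeR 4.0.16 (R 4.3.3; TMM factors, quasi-likelihood test, genotype as the only term), and Benjamini-Hochberg adjusted p-values below 0.05 with at least a 2-fold change were called. The script was run on simulated counts in which few genes changed, unlike these data, so that run does not bear on the scaling here. Shares, sums and log2 ratios (0.5 added to each count) were compared with exact two-sided permutation tests (scipy 1.17.1). Intervals and the limit of 3 counts cover counting error only. Total counts were 16526044 to 22481670 per library, so that 3 counts were 0.133 to 0.182 CPM before TMM scaling.

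The alternatives were other scaling factors, DESeq2 1.42.0, other filters, a replicate block, per-kilobase values and leaving out each library. Genes were named by a fixed rule: the isoforms, *Pdk4*, other actin rows with at least 10 counts, in each list the most changed called genes in both directions and the one with the highest mean CPM over the 6 libraries (all genes in lists of up to 8), and the 3 nearest genes of each tested isoform, of which 1 is not reported here. Beyond it, *Tmsb4x*, *Inf2*, *Tnnt2*, *Tnnc1*, *Myod1*, *Myog*, other genes of lists longer than 8 and calls lost under an alternative were named after their values were seen. The members and lists were chosen with earlier results of these data known. Symbols without a row were matched through RefSeq synonyms (3 genes). Of the 6 members, 6 matched a GENCODE coding sequence and 4 a RefSeq promoter. Protein sequences were not used here.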

Additional observations from a re-analysis of the deposited data

How the results depend on the processing

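The 3 tested isoforms were called higher in Pdk4SMKO cells under all alternatives in which they were tested. Requiring 10 counts in every library left *Actg2* untested and 2 isoforms called. The difference in share between genotypes moved when all actin rows entered the sum, to 34.5 percentage points for *Actb* and -14.0 for *Acta2*, since the added rows, mostly *Gm23419*, took 25.8% to 28.6% of the sum in Pdk4fl/fl and 5.66% to 7.08% in Pdk4SMKO libraries. The log2 fold change of the summed level was 2.67 and rose to 2.89 with upper-quartile factors and to 3.28 with library size alone. The difference in the log2 ratio of *Actg2* to *Actb* reversed to -0.35 with 2 added to each count in place of 0.5, and lay between -0.47 and 1.38 when single libraries were left out, with the negative value without Pdk4fl/fl replicate 1. That of the share of *Actc1*, which rests on 4 reads in all, lay between -0.0120 and 0.000942 percentage points. The genes called numbered 8349, with 3733 lower and 4616 higher. Library size alone gave 2390 lower and 6184 higher, and upper-quartile factors 3220 and 5122. Of 416 counts of called list genes under an alternative, 32 differed by over 1.5 times from the value given, most of them counts of 5 or fewer. Same-numbered libraries of the genotypes deviated together at 0.0638, 0.194 and 0.356, so that the numbers were not taken as pairs. With the replicate block, 8281 genes and the same 3 isoforms were called, *Actb* at 3.26, *Acta2* at 1.60 and *Actg2* at 3.48, while *Actr3b* and *Rgs5* were not, which left 0 actin-related and 2 pericyte genes called higher. At this depth a change in *Acta1* or *Actc1* could not be detected, and *Actg1* was not measured.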
